A study of Mus musculus with 5 samples.

Results

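10 direct targets of the transcription factor p53 were followed gene by gene in cardiac fibroblasts (CF) that had been labeled with 4-thiouridine (S4U) and in CF that had not. The genes were Cdkn1a, Mdm2, Ccng1, Sesn1, Sesn2, Bbc3, Pmaip1, Bax, Aen and Phlda3, which are 10 of the 20365 gene names in the count tables. Each was taken by its name, and where a name had several 3′ intervals the one with the highest mean of the deposited CPM (library-scaled read counts) in the labeled libraries was used. The question asked of each gene was whether its reads differed between labeled and unlabeled cells, and how many of its labeled reads carried the mark of new synthesis.

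The cells came from hearts of healthy adult male C57Bl/6J wildtype mice, were released by collagenase perfusion on a Langendorff apparatus and were grown to confluency, so that every group consisted of cultured primary cells. In SLAMseq, S4U is built into RNA that is made while it is present, and alkylation with iodoacetamide makes each S4U read as C in place of T (a T>C conversion). The 3 labeled libraries came from CF kept for 12 h with 0.1 mM S4U, and the 2 unlabeled libraries from CF cultured alongside for 12 h without S4U; the RNA of both groups was alkylated. The study names 3 CF preparations, but the labels do not say which libraries share one, so that p-values measure the spread between these libraries only.

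p53 is a transcription factor that is normally kept scarce by the ubiquitin ligase Mdm2. When DNA damage, nucleolar stress or other insults stabilize it, p53 binds paired response elements near its target genes and raises their transcription. Its targets stop the cell cycle, limit growth signaling, repair DNA or start apoptosis, and one of them is Mdm2 itself, which closes a negative feedback loop. Several of these transcripts are known for short half-lives.

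Over 1 interval per gene, the libraries held between 506045 and 1842863 deduplicated reads, and labeled library 3 was the shallowest. A T>C conversion was carried by 42.1% to 45.9% of the reads in the labeled libraries and by 1.51% and 2.30% in the unlabeled ones. Labeled libraries 2 and 3 were the most alike, with a chi-square of 2.20 per degree of freedom over genes, whereas labeled library 1 differed from them by 12.2 and 18.2 and the unlabeled libraries differed from each other by 17.7. Labeled library 1 thus stood apart in its group, while 2 unlabeled libraries cannot show which of them does. Where leaving out 1 library moved a fold change of reads by more than 1.5 times, the value without it is given. The labeled cell type was borne out by its markers: all 8 fibroblast markers were tested, with a summed level of 30057 to 35387 normalized reads (counts on the CPM scale after TMM scaling) in the labeled and 21809 and 27429 in the unlabeled libraries. Col1a1 and Col1a2 were the largest parts of this sum, with 13320 and 9318 in labeled library 1. Of the 8 markers 6 had a log2 fold change above 0, and Pdgfra (-0.51) and Ddr2 (-0.48) were lower in the labeled libraries. The 5 cardiomyocyte markers summed to at most 6.09, and 3 of them were at 0 in every library.

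Because p53 acts through a known DNA element, the sequence within 2500 bases of each gene start was searched for the full-length p53 response element without a spacer, a 20-base palindrome that reads the same on both strands, with at most 2 mismatches outside the C and G of its cores. Such a match was found in 4 of the 10 genes (Cdkn1a, Ccng1, Pmaip1 and Bax), and in 4.89% of the windows of 21770 protein-coding genes. With at most 1 mismatch it was found in Cdkn1a and Ccng1, and in 0.758% of all windows. The matches are shown because p53 is known to bind sequences of this kind (GRCm39, 5′ to 3′ on the strand of the gene, with the 4-base cores in capitals); the match in Pmaip1 is not shown. They are matches of letters only, and binding was not measured.
Cdkn1a, chr17:29309902-29309921, plus strand, 34 bases before the gene start: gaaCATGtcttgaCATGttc
Ccng1, chr11:40646289-40646308, minus strand, 160 bases before the gene start: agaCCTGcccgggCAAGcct
Ccng1, chr11:40645763-40645782, minus strand, 366 bases after the gene start: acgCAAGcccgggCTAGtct
Bax, chr7:45115998-45116017, minus strand, 308 bases after the gene start: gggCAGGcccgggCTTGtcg

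In the labeled libraries 9 of the 10 genes had more reads than in the unlabeled ones and Sesn1 had fewer. The median log2 fold change of the 10 genes, labeled against unlabeled, was 1.24, beside 0.02 over the 9807 genes tested. Every labeled library lay above both unlabeled libraries in 8 of the 10 genes, which was the case for 10.4% of all genes tested. In Sesn1 every labeled library lay below both unlabeled ones, as in 11.1% of all genes, and only in Bbc3 did the groups overlap.

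None of the 10 genes passed an adjusted p of 0.05 in edgeR's quasi-likelihood test, and neither did any other gene (0% called higher and 0% called lower). At an unadjusted p below 0.05 the same test called 6 of the 10 higher, against 2.84% of all genes, and 1 lower, against 3.12%. When single libraries were left out, 4 to 7 were called higher. The 7 were of 9 tested without labeled library 1 (445 of 9486 genes in all), and the 4 were of 9 tested without labeled library 2 (157 of 9775) and of 10 without labeled library 3 (155 of 9891). DESeq2 also called 0 of the 10 after adjustment, while calling 0.0829% of its genes higher and 0.0331% lower. With the replicate number as a block, edgeR called 7 of the 10 higher (528 of 9807 genes in all) and 1 lower (617 in all) after adjustment. The labels do not say that a number marks a shared preparation, so the fit without the block was kept as the main one. Mdm2, Pmaip1 and Phlda3 were below an unadjusted p of 0.05 in edgeR whichever single library was left out. In bulk samples, fewer cells that express a gene and less RNA per cell cannot be told apart.

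**Figure D1:**
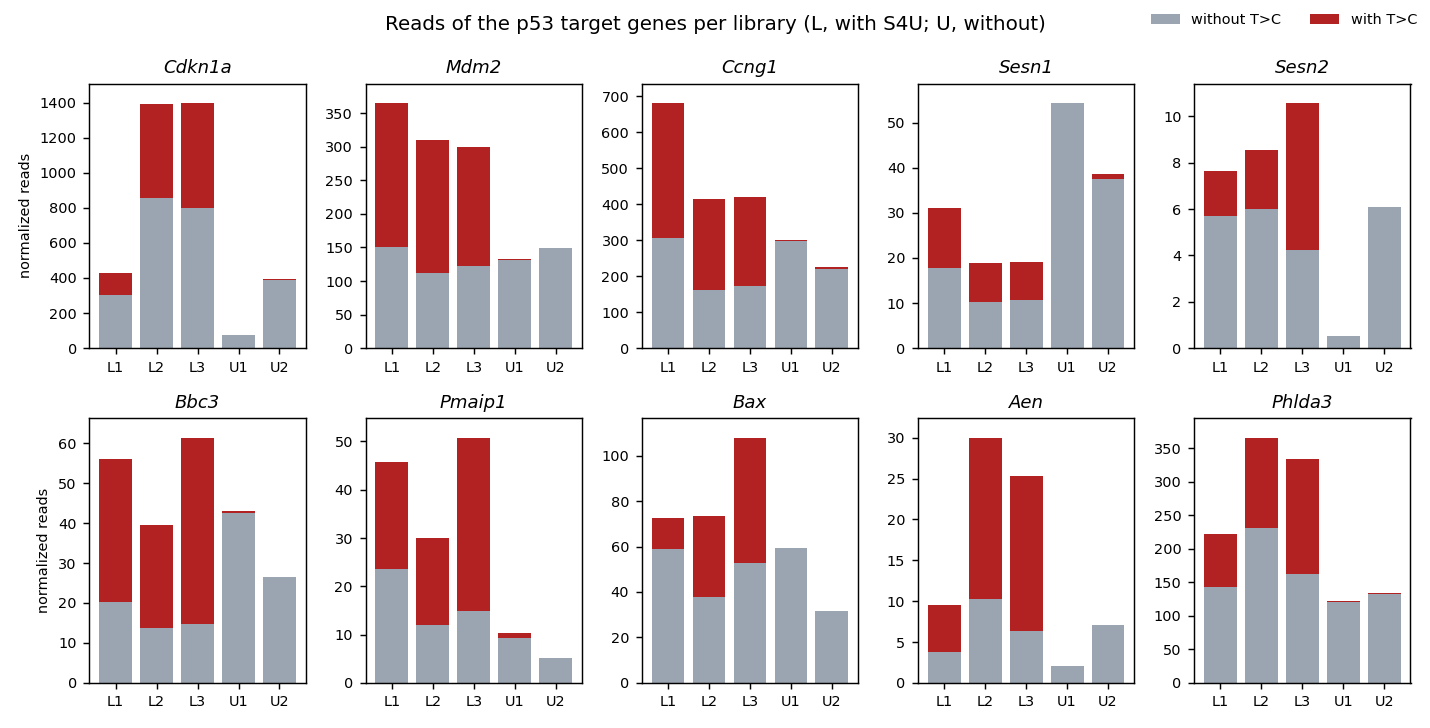
Normalized reads of each of the 10 genes (vertical axis, a separate scale for each gene) in the 3 labeled (L1 to L3) and 2 unlabeled libraries (U1, U2), split into reads with (red) and without (gray) a T>C conversion. Labeled bars stand above both unlabeled bars in 8 genes and below both in Sesn1.

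Cdkn1a encodes p21, the cyclin-dependent kinase inhibitor through which p53 arrests the cell cycle. Its interval covers 1329 bases of the last exon, within the 3′ UTR (ENSMUSG00000023067.16, chr17:29318368-29319696, plus strand). Its normalized reads were 427, 1395 and 1397 in labeled libraries 1 to 3 and 76.3 and 392 in unlabeled libraries 1 and 2. The groups did not overlap, yet labeled library 1 exceeded unlabeled library 2 only narrowly, and both libraries numbered 1 were low. The log2 fold change was 2.20 ± 0.80 (SE), higher than that of 99.8% of the genes tested, with an adjusted p of 0.767 in edgeR. The unlabeled libraries weighed most on this value: it was 1.45 without unlabeled library 1 and 3.81 without unlabeled library 2, against 2.59 without labeled library 1. The unadjusted p of 0.0285 was above 0.05 without labeled library 2 (0.0703), labeled library 3 (0.0817) or unlabeled library 1 (0.0626).

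The share of Cdkn1a reads with a conversion averaged 36.5%, the lowest mean of the 10 genes. It was 28.5% of 671 reads in labeled library 1 (95% Clopper-Pearson interval 25.1% to 32.0%), 38.5% of 1629 reads in labeled library 2 (36.1% to 40.9%) and 42.7% of 661 reads in labeled library 3 (38.9% to 46.5%), and 0.671% and 0.518% in the unlabeled libraries. Such intervals cover counting error only. The T>C conversion rate, the number of conversions per covered T position, was 0.0294, 0.0355 and 0.0400, against 0 and 0.000343 without S4U, where 0 of 1734 T positions allows a rate of up to 0.00173. Cdkn1a reads covered only 13.9 T positions each in the labeled libraries, which limits how many new reads can show a conversion. In both libraries numbered 1 the figure was 11.4 and 11.6, against 14.6 to 15.1 in the others. Over 6859 genes the median was 18.8 and 19.8 in the libraries numbered 1 and 21.3 to 22.0 in the others, and the part of this difference in the result was not tested. Reads of Cdkn1a without a conversion were 305, 858 and 801 in the labeled libraries, against 76.3 and 392 reads in all in the unlabeled ones, and the 2 groups overlapped.

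Mdm2 encodes the ubiquitin ligase that marks p53 for degradation. Its interval spans 1335 bases of the 3′ UTR (ENSMUSG00000020184.17, chr10:117524780-117526114, minus strand). Normalized reads were 365, 311 and 300.1 in the labeled and 133 and 149 in the unlabeled libraries. The libraries of each group were close together and the groups were well separated. The log2 fold change was 1.21 ± 0.25 (SE), which stayed between 1.11 and 1.29 under the alternatives run, with an unadjusted p of 0.00168 and an adjusted p of 0.532 in edgeR. A conversion was found in 58.5%, 63.9% and 59.2% of its labeled reads, and in 1.16% and 0% of its unlabeled reads. Without S4U its rate was 0.000458 in library 1 and 0 of 3746 T positions in library 2, which allows a rate of up to 0.000801. Its T>C rate was 0.0434 ± 0.0043 (SD, n = 3), higher than in 82.2% of the 2105 deeply covered genes (those whose reads covered a minimum of 1000 T positions in each library). Its reads without a conversion were 151, 112 and 123 in the labeled libraries, and so lay on either side of the 133 and 149 reads in all of the unlabeled ones. Its interval holds 1296 stretches of 40 bases. On both strands together, 30 distinct stretches also occur in transcripts of 2718 other genes, with at most 15 in any 1 gene. A few of its reads may therefore be shared.

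Ccng1 encodes cyclin G1, which brings the phosphatase PP2A to Mdm2. Its interval of 2316 bases lies in the 3′ UTR (ENSMUSG00000020326.9, chr11:40639379-40641694, minus strand) and overlaps Nudcd2 on the other strand. Normalized reads were 680.3, 415 and 418 in the labeled and 299 and 224 in the unlabeled libraries. Labeled library 1 was the highest and the groups did not overlap. This gave a log2 fold change of 0.95 ± 0.33 (SE), with an adjusted p of 0.731 in edgeR, which was 0.66 without labeled library 1. Conversions were carried by 54.9%, 61.0% and 59.1% of labeled reads, and the T>C rate of 0.0437 ± 0.0030 (SD, n = 3) was close to that of Mdm2. Unlabeled reads of Ccng1 had rates of 0.000160 and 0.000792.

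The 3′ intervals of these genes were also read for the pentamer ATTTA, the core of AU-rich elements that are known from short-lived transcripts. Mdm2 held 8 copies, more than 97.5% of the 2718 intervals of similar length (0.8 to 1.25 times its own), whose median was 2. Ccng1 also held 8, more than 86.7% of intervals of its length, Cdkn1a held 3 and Sesn1 held 2. The other genes except Pmaip1, which held 4, held none, and Aen stood out among these because 97.9% of intervals of its length hold at least 1. The stretch richest in the pentamer is shown for the genes whose conversion shares are compared here (GRCm39, 25 bases, strand of the gene, pentamers in capitals). A match is a description of the letters, and stability was not measured.
Mdm2, chr10:117525718-117525742: taataagaacATTTAATTTATTTAg
Ccng1, chr11:40640277-40640301: aaactgcttaATTTAaatctcaaaa
Cdkn1a, chr17:29318523-29318547: acttaaagttATTTAaaaaaagaac
Sesn1, chr10:41784274-41784298: ttgtatcttgATTTAcaaaaatgct

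The sestrins are stress-induced proteins that restrain the growth kinase complex mTORC1. Sesn1 was the only one of the 10 genes with fewer reads in the labeled libraries. Its interval of 1078 bases (ENSMUSG00000038332.15, chr10:41783355-41784432, plus strand) runs 9 bases past the annotated end of the gene. Normalized reads were 31.2, 18.8 and 19.0 in the labeled and 54.3 and 38.6 in the unlabeled libraries, from 9 to 106 reads per library. The groups did not overlap. The log2 fold change was -0.99 ± 0.37 (SE), with an unadjusted p of 0.0305 and an adjusted p of 0.768 in edgeR. The unadjusted p was above 0.05 without labeled library 2 (0.1004), without labeled library 3 (0.0853) and without unlabeled library 1 (0.201). New reads of Sesn1 were nevertheless present: 42.9%, 45.5% and 44.4% of labeled reads carried a conversion, close to the 42.1% to 45.9% of all reads. Its mean T>C rate of 0.0295 ± 0.0039 (SD, n = 3) was the lowest of the 10 genes.

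Sesn2 is the second sestrin and was the least covered gene, with 12, 10 and 5 reads in the labeled libraries and 1 and 6 in the unlabeled ones. Its normalized reads of 7.63, 8.56 and 10.6 lay above 0.512 and 6.09, and the log2 fold change was 1.62 ± 0.91 (SE). Without unlabeled library 1, which held 1 read, the log2 fold change was 0.50, and without unlabeled library 2 it was 3.84. Only 3 reads in each labeled library carried a conversion, and 0 of 14 and 0 of 70 covered T positions were converted without S4U, which allows rates of up to 0.214 and 0.0429 there. At this depth no statement on its turnover is firm. Its interval lies in the 3′ UTR (ENSMUSG00000028893.10, chr4:132220115-132221026, minus strand).

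Bbc3 and Pmaip1 encode PUMA and NOXA, BH3-only proteins that trigger apoptosis by neutralizing anti-apoptotic Bcl-2 family members. Pmaip1 (ENSMUSG00000024521.10) had normalized reads of 45.8, 30.0 and 50.7 in the labeled libraries and of 10.2 and 5.08 in the unlabeled ones. The groups were far apart, although unlabeled library 2 held only 5 reads. Its log2 fold change of 2.36 ± 0.46 (SE) was the highest of the 10 genes, higher than that of 99.9% of all genes tested, and its unadjusted p of 0.00130 the lowest, with an adjusted p of 0.532 in edgeR. It was 3.01 without unlabeled library 1. A conversion was found in 48.6%, 60.0% and 70.8% of its labeled reads, from 72, 35 and 24 reads, and the exact intervals of the lowest (36.7% to 60.7%) and the highest (48.9% to 87.4%) overlapped. In the unlabeled libraries 2 of 20 and 0 of 5 reads carried a conversion, so that the background in unlabeled library 1 may reach 31.7% (upper 95% bound).

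Bbc3 differed from Pmaip1 in its reads. Its normalized reads were 55.9, 39.4 and 61.3 in the labeled and 43.0 and 26.4 in the unlabeled libraries, and labeled library 2 lay below unlabeled library 1. Its log2 fold change was 0.56 ± 0.36 (SE), with an adjusted p of 0.984 in edgeR, and 88.4% of all genes had a lower one. It was 0.97 without unlabeled library 1 and 0.26 without unlabeled library 2. Its mean share of reads with a conversion was nevertheless the highest of the 10 genes, at 68.2% (63.6%, 65.2% and 75.9% in labeled libraries 1 to 3). Its reads covered 34.6 T positions each, the most of the 10 genes, and per covered T position the rate of 0.0330 ± 0.0033 (SD, n = 3) was the second lowest. The order of the genes by share and by rate thus differed, as it did for Sesn2, Cdkn1a, Bax and Phlda3 with 10.4 to 13.9 T positions per read. Places also differed for Aen, Ccng1 and Sesn1, with 18.3 to 23.2 T positions per read. Sesn1 was the lowest by rate but in place 5 from the lowest by share. The interval lies in the 3′ UTR (ENSMUSG00000002083.15, chr7:16051160-16052130, plus strand).

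Bax encodes the protein that forms pores in the outer mitochondrial membrane during apoptosis. It was measured on the shortest interval, 221 bases of the 3′ UTR (ENSMUSG00000003873.13, chr7:45111124-45111344, minus strand). Normalized reads were 72.5, 73.6 and 108 in the labeled and 59.4 and 31.5 in the unlabeled libraries. Between the groups the log2 fold change was 0.86 ± 0.38 (SE), with an unadjusted p of 0.0565 and an adjusted p of 0.860 in edgeR, and ranged from 0.48 without unlabeled library 2 to 1.40 without unlabeled library 1. Labeled library 1 stood apart in new reads: 18.4% of its 114 Bax reads carried a conversion (11.8% to 26.8%), against 48.8% of 86 (37.9% to 59.9%) and 51.0% of 51 (36.6% to 65.2%). The reads of both libraries numbered 1 covered 6.69 and 7.03 T positions each, against 14.7 to 18.1 in the other libraries, and the rate per T position of labeled library 1 was 0.0288, against 0.0411 and 0.0436.

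Aen encodes a p53-induced nuclease that degrades DNA in apoptosis, and Phlda3 encodes a PH-domain protein that competes with the kinase Akt for membrane lipids. Aen (ENSMUSG00000030609.20, chr7:78557165-78560957, plus strand) had normalized reads of 9.54, 30.0 and 25.4 in the labeled and 2.05 and 7.11 in the unlabeled libraries, from 4 to 35 reads each. Its log2 fold change was 2.32 ± 0.77 (SE), with an unadjusted p of 0.0190 and an adjusted p of 0.724 in edgeR. It was 1.55 without unlabeled library 1 and 3.30 without unlabeled library 2, and the unadjusted p was above 0.05 without labeled library 2 (0.0707), labeled library 3 (0.0524) or unlabeled library 1 (0.106). Its T>C rate of 0.0501 ± 0.0095 (SD, n = 3) was the highest of the 10 genes. That rate rests on 285, 652 and 198 covered T positions, and 1177 of the 3754 stretches of 40 bases in its interval are shared with Gm73250, annotated on the other strand. Reads of Gm73250 may therefore be among those counted for Aen, which was not tested.

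Phlda3 was well covered (ENSMUSG00000041801.7, chr1:135696216-135696872, plus strand, 3′ UTR). Its normalized reads were 223, 366 and 334 in the labeled and 122 and 134 in the unlabeled libraries. The groups were clearly separated, and labeled library 1 was again the lowest of its group. The log2 fold change was 1.26 ± 0.30 (SE), with an unadjusted p of 0.00401 and an adjusted p of 0.543 in edgeR, and lay between 1.12 and 1.45 under the alternatives run. A conversion was carried by 35.7%, 36.8% and 51.3% of labeled reads and by 0.840% and 0.758% of unlabeled reads.

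Conversions were found above the unlabeled level in all 10 genes. In each of them the T>C rate was higher with S4U than without it in the kind of beta-binomial test that the study used, with unadjusted p from 7.5e-07 (Ccng1) to 0.0209 (Sesn2), and 94.6% of all intervals tested were called the same way. Sesn2 was not called without unlabeled library 2 (p of 0.319) or by limma on the log odds of conversion (adjusted p of 0.0956), and the other 9 genes were called in these as well. Among the 4 genes that were covered deeply in every library, the mean rates were 0.0350 (Cdkn1a), 0.0397 (Phlda3), 0.0434 (Mdm2) and 0.0437 (Ccng1), beside a median of 0.0388 and quartiles of 0.0343 and 0.0423 over the 2105 deeply covered genes. Mdm2 and Ccng1 thus lay above the upper quartile, and Cdkn1a and Phlda3 within the quartiles. Mdm2 and Ccng1 did not differ beyond their spread, and the ranges of Cdkn1a (0.0294 to 0.0400) and Phlda3 (0.0339 to 0.0489) overlapped, whereas the highest rate of Cdkn1a was below the lowest of Ccng1 (0.0410) and of Mdm2 (0.0406).

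**Figure D2:**
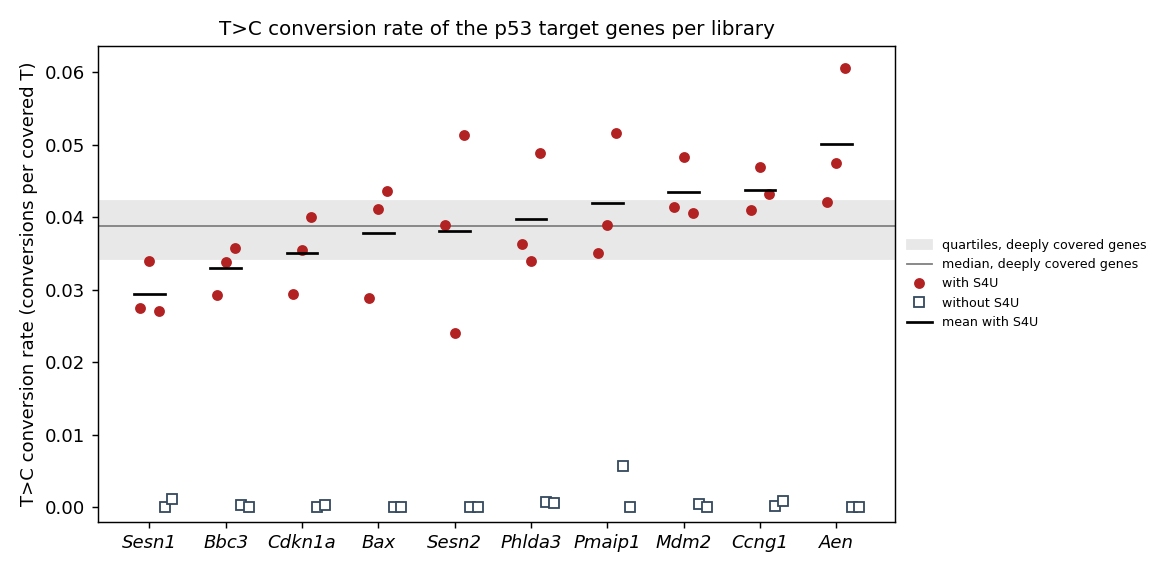
T>C conversion rate (conversions per covered T position, vertical axis) of the 10 genes in the labeled (red) and unlabeled (open squares) libraries, in order of their labeled mean (black bars). The gray band and line are the quartiles and the median of the labeled mean over 2105 deeply covered genes; means run from 0.0295 (Sesn1) to 0.0501 (Aen), and every unlabeled rate is 0.00571 or lower.

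Whether reads with a conversion were as many as the rise was then asked for the 9 genes with more reads in the labeled libraries. The rise is the labeled minus the unlabeled mean of normalized reads, and both it and the reads with a conversion are levels on that scale. For Cdkn1a the rise was 839, while reads with a conversion averaged 418 ± 259 (SD, n = 3), or 0.499 of the rise. For Mdm2 the rise was 184 and reads with a conversion averaged 197 ± 18.1 (SD, n = 3), or 1.07 of it. For Ccng1 the ratio was 1.20 and for Bbc3 2.05. The ratio was 0.642 for Sesn2, 0.716 for Phlda3, 0.736 for Pmaip1, 0.869 for Aen and 0.887 for Bax. Leaving out 1 library moved some of these ratios by more than 1.5 times: without unlabeled library 1 that of Sesn2 was 1.28, and without unlabeled library 2 that of Bbc3 was 3.92 and that of Bax 1.38. On the deposited CPM, with other library totals, the ratio was 22.4 for Bbc3 and 2.25 for Bax. Reads with a conversion thus equaled or exceeded the rise in 3 of 9 genes, and in 5 of 9 without unlabeled library 1. Over all genes with a higher labeled mean the share was 88.5%, and over the genes with a log2 fold change at least as high as that of Bbc3 it was 59.2%. At a given share of reads with a conversion, the ratio is lower the larger the fold change. Neither background share was matched to the fold changes of the 9 genes, so the counts draw no line between these genes and others.

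A new read without an S4U carries no conversion, so the reads with a conversion are a lower count of the new reads. A second estimate took the rate of each gene over the 95th percentile of the rates of deeply covered genes (0.0468, 0.0480 and 0.0506 in labeled libraries 1 to 3) as its share of new reads, as if genes at that percentile consisted of new RNA alone. By this estimate 72.0% of Cdkn1a reads, 89.5% of Mdm2 reads, 90.3% of Ccng1 reads and 81.6% of Phlda3 reads in the labeled libraries were new, and 60.9% of Sesn1 reads. The estimated new reads were 0.957 of the rise for Cdkn1a and from 1.06 (Pmaip1) to 2.02 (Bbc3) of it in the other 8 genes. Over all genes with a higher labeled mean 97.2% reached the rise by this estimate, and 90.2% of those with a log2 fold change at least as high as that of Bbc3. The 8 of 9 is thus near the background, which was again not matched to the fold changes of the 9 genes. The answer for Pmaip1, Sesn2, Bax, Aen and Phlda3 therefore depended on how new reads were counted, and that for Mdm2, Ccng1 and Bbc3 did not. Cdkn1a was below 1 by both counts with all libraries in use. Its rise rests on unlabeled values as far apart as 76.3 and 392, and the second estimate was not repeated with libraries left out. New reads also replace RNA that decays, and a ratio of 1 or more says only that the new reads were numerous enough.

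**Figure D3:**
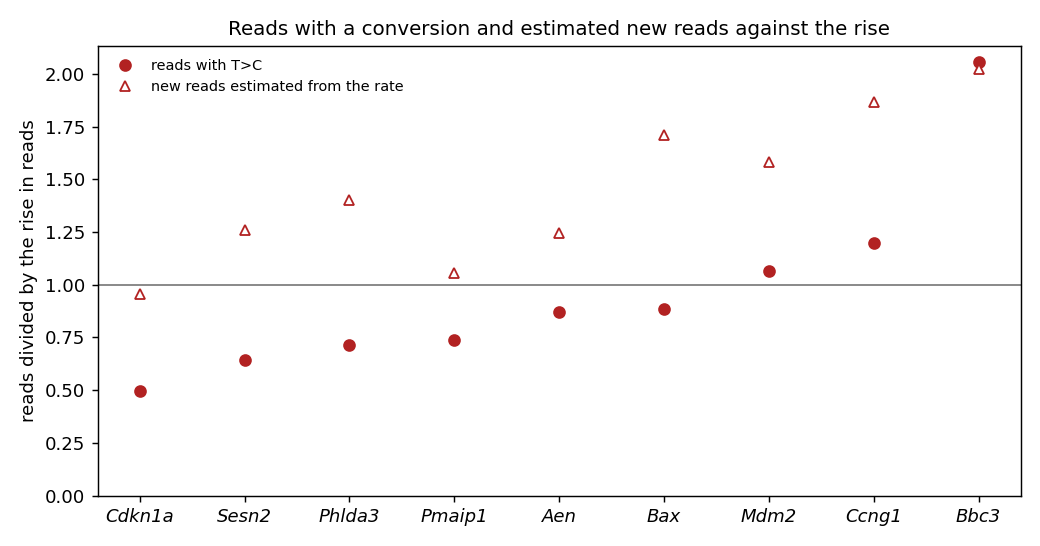
Reads with a T>C conversion (filled circles) and new reads estimated from the conversion rate (open triangles), each divided by the rise in normalized reads between unlabeled and labeled means (vertical axis), for the 9 genes with more reads in the labeled libraries. Filled circles run from 0.499 (Cdkn1a) to 2.05 (Bbc3), and the line marks 1.

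The labeled reads without a conversion were set against all reads of the unlabeled libraries in the same edgeR model. Over all genes these reads were lower in the labeled libraries, with a median log2 difference of -0.996, and 28.7% of genes were called lower at an adjusted p below 0.05, against 0.0408% called higher. These calls over all genes rest on single libraries and on the scaling: the genes called lower fell from 2818 to 0 without labeled library 2, without labeled library 3 or with size factors of the reads without a conversion, and the 4 called higher also fell to 0. The 10 genes had a median of 0.30, and 6 of them lay above 0, as did 5.99% of all genes. Single libraries carried some of these signs. Without unlabeled library 1 the value was -0.14 for Sesn2 and -0.079 for Aen, and without unlabeled library 2 it was -0.25 for Bax. Labeled reads covered 10.4 to 13.9 T positions each in Sesn2, Bax, Phlda3 and Cdkn1a, 18.3 in Aen and 21.1 in Pmaip1. In the genes below 0 they covered 21.1 (Ccng1) to 34.6 (Bbc3). The median over 6859 genes was 18.8 to 21.4 in the labeled libraries. Fewer T positions leave more new reads without a conversion, and the part of this in the values was not tested. Cdkn1a had the highest value at 1.49 ± 0.67 (SE), followed by Pmaip1 at 1.09 ± 0.54 and Sesn2 at 0.97 ± 0.93, and none of the 3 passed the test (adjusted p of 0.110, 0.138 and 0.406 in edgeR). The value of Pmaip1 was 0.70 without labeled library 1 and 1.73 without unlabeled library 1. When single libraries were left out, the value of Cdkn1a ran from 0.74 without unlabeled library 1 (adjusted p of 0.334 in edgeR) to 3.10 without unlabeled library 2, and it was called higher in the latter and without labeled library 1 (1.84) only. Mdm2 at -0.13 ± 0.30 and Ccng1 at -0.29 ± 0.37 lay slightly below 0 on the scaling of all reads but above the median of all genes. Scaling the reads without a conversion by their own size factors moved all genes alike, to a median of 0.02, and with it Mdm2 to 0.90 and Ccng1 to 0.72.

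Sesn1 was at the other end. Its reads without a conversion were 17.8, 10.3 and 10.6 in the labeled libraries, against 54.3 and 38.6 reads in all in the unlabeled ones, a log2 difference of -1.80 ± 0.42 (SE). With an adjusted p of 0.0210 in edgeR it was called lower, which makes 1 of the 10 genes beside 28.7% of all genes, and 8.47% of all genes had a lower value. It did not pass without labeled library 2 (0.0979), labeled library 3 (0.0820) or unlabeled library 1 (0.0852), nor with size factors of the reads without a conversion (0.545). Bbc3 at -1.08 ± 0.41 lay near the median of all genes.

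**Figure D4:**
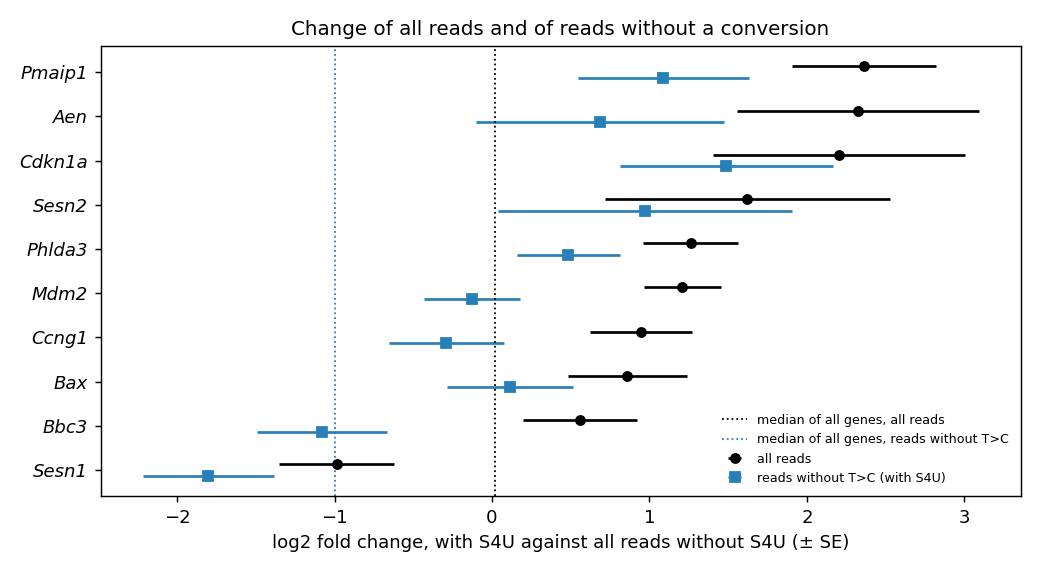
Log2 fold change (horizontal axis, ± SE) of all reads (black circles) and of labeled reads without a conversion (blue squares), both against all reads of the unlabeled libraries, for the 10 genes. Dotted lines mark the medians of all genes tested, 0.02 and -0.996; all reads lie right of their median in every gene but Sesn1.

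The rest of the pathway was described on the same scale. Trp53, which encodes p53 itself, had normalized reads of 12.7, 42.0 and 69.7 in the labeled and 13.3 and 43.7 in the unlabeled libraries, and the groups overlapped (log2 fold change 0.51, unadjusted p of 0.530 in edgeR). Of 10 genes for p53 and its regulators 8 were tested, and 4 were higher and 4 lower, with a median of -0.10. The 4 with the lowest p were Atm, the kinase that signals DNA breaks (-0.91), Usp7, a deubiquitinase of Mdm2 and p53 (-0.74), Ppm1d, a phosphatase that is itself a p53 target (0.53), and Rchy1, a ubiquitin ligase of p53 (0.31). The labeled libraries lay below both unlabeled ones in 2 of the 8 genes, Atm and Usp7 (11.1% of all genes), and above both in 2, Ppm1d and Cop1 (10.4%). Atm and Usp7 had unadjusted p of 0.0132 and 0.0209 in edgeR.

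Of 26 other p53 targets 21 were tested, and all 21 had a log2 fold change above 0, with a median of 0.82. In 12 of them the unadjusted p was below 0.05 in edgeR (2.84% of all genes) and in 12 the labeled libraries lay above both unlabeled ones (10.4%), while 0 passed after adjustment. The 4 with the lowest p were Gdf15, a stress-induced secreted factor (2.20), Zfp365, a zinc finger protein (2.10), Trp53inp1, which promotes p53 activity (1.21), and Zmat3, an RNA-binding protein (1.11). Normalized reads of Gdf15 were 199, 120 and 125 in the labeled and 33.8 and 30.5 in the unlabeled libraries, and the groups did not overlap. These lists were drawn up with earlier results of the same data known and are no independent evidence of their direction.

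Cell cycle genes that are known to be repressed when p53 is active went the other way. Of 14 such genes 13 were tested and all 13 had a log2 fold change below 0, with a median of -0.91. In 3 of the 13 the unadjusted p was below 0.05 in edgeR (3.12% of all genes), in 6 the labeled libraries lay below both unlabeled ones (11.1%), and 0 passed after adjustment. Bub1, a spindle checkpoint kinase (-2.80), Ccna2, the cyclin of S phase and G2 (-1.43), Ccnb2, a mitotic cyclin (-1.03), and Top2a, the topoisomerase of dividing cells (-1.11), had the lowest p. Ccna2 had normalized reads of 25.4, 23.1 and 14.8 in the labeled and 55.8 and 62.0 in the unlabeled libraries.

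**Figure D5:**
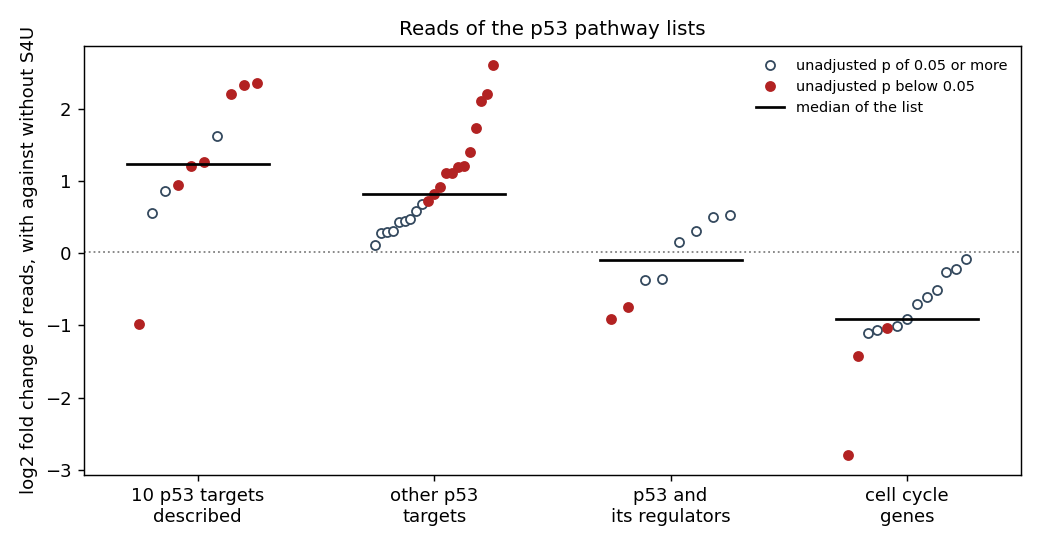
Log2 fold change of reads (vertical axis), labeled against unlabeled, for each tested gene of 4 lists, with the list median as a bar and filled points for an unadjusted p below 0.05 in edgeR. The medians are 1.24, 0.82, -0.10 and -0.91 for the 10 targets described, other p53 targets, p53 with its regulators and cell cycle genes.

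Markers of other cell types were compared because they could move with these genes. The 5 macrophage markers summed to 36.2, 75.4 and 50.7 normalized reads in the labeled and 33.8 and 71.1 in the unlabeled libraries, and the 5 endothelial markers to 76.9, 150 and 86.7 and to 101 and 166. Both sums were lowest in the libraries numbered 1 of their group, as was Cdkn1a, and their part in the result for Cdkn1a was not tested. The isolation protocol of the study removes endothelial (CD31+) and immune (CD45+) cells with magnetic beads before the cells are seeded. The 5 markers of smooth muscle cells and pericytes summed to 22.3, 17.1 and 31.7 in the labeled and 12.3 and 8.13 in the unlabeled libraries, and the only one that was tested, Cnn1, was higher (1.35, unadjusted p of 0.0298 in edgeR).

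The genes whose reads followed Cdkn1a most closely over the 5 libraries were, of 2014 genes with at least 50 reads in every library, Ddah1 (Pearson r = 0.9998 on log2 normalized reads), Hsp90ab1 (0.999), Pqlc3 (0.997), Mgp (0.996) and Pdrg1 (0.996). None of these is among the p53 targets listed. They shared with Cdkn1a the low value in unlabeled library 1 and the near equality of labeled libraries 2 and 3: Mgp, for example, had normalized reads of 4403, 7878 and 7524 in the labeled and 2413 and 4602 in the unlabeled libraries. Their log2 fold changes, from 0.31 to 1.00, were smaller than that of Cdkn1a. The genes closest to Sesn1, of 2015, were Adamts1 (r = 0.995), Sec23ip (0.994), Ildr2 (0.993), Cyfip1 (0.993) and Slfn5 (0.992), with log2 fold changes from -1.51 (Slfn5) to -0.49 (Cyfip1). With 5 libraries these correlations are descriptions of the same libraries and their depth.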

How the data were processed

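SLAMseq libraries of 3 labeled and 2 unlabeled CF samples were analysed. The authors extracted UMIs with UMI-tools, mapped reads to mm39 with SLAM-DUNK (version 0.4.3 per the file headers), removed duplicates and deposited 1 table per library of 97442 rows with 40428 distinct 3′ intervals. The deposited counts comprise all reads, the reads that carry a T>C conversion, covered T positions and conversions, from which the authors derived the conversion rate as a fraction, and CPM values. CPM values divide by the authors' totals of 10975173 to 14616278, which exceed the reads on 1 interval per gene; CPM served only to choose intervals and as 1 alternative. The T content of 20329 of 20329 intervals matched GRCm39, and annotation came from GENCODE vM39.

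From the counts, edgeR 4.0.16 (R 4.3.3; quasi-likelihood, TMM, filterByExpr, group only) was fitted to 1 interval per gene, adjusted over 9807 genes by Benjamini-Hochberg; DESeq2 1.42.0 and limma 3.58.1 were alternatives. No p is adjusted over a list alone. Conversion rates were tested with a two-sided beta-binomial likelihood-ratio test (intervals with at least 1 covered T position in every library; unadjusted p below 0.05, as in the study) in Python 3.11.15. The scripts were tested on simulated data: at a log2 fold change of 2 edgeR recovered 147 of 200 genes with 4 false calls among 9496 genes, and the beta-binomial test called 92.5% of changed and 6.18% of unchanged intervals. The simulated read counts had the same dispersion for every gene and no pattern shared between libraries. The recovery therefore checks the scripts and does not give the power in these data.

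The members, gene lists and markers were chosen with earlier results of these data known. Named genes were the 10 members, of each pathway list the 4 genes with the lowest p, and the 5 genes most correlated with Cdkn1a and with Sesn1; Cnn1 and the other genes named singly (Trp53 among them) fell outside the rule and were named after their values were seen. Alternatives varied the size factors, filter, interval, test, replicate block, size factors of unconverted reads, coverage minimum, background, estimate of new reads and libraries left out. Reads were deduplicated, but intervals on shares cover counting error only.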

Additional observations from a re-analysis of the deposited data

How the results depend on the processing

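With the replicate number as a block, edgeR called 7 of the 10 genes higher (528 of 9807 genes in all) and 1 lower (617 in all), where it had called 0 and 0 without the block. The labels do not say that a number marks a shared preparation, and only 2 numbers occur in both groups; deviations from the group means correlated at 0.85 for the libraries numbered 1 and 0.73 for those numbered 2 over 6859 genes, but labeled library 3, which shares no number with an unlabeled library, also correlated at 0.60 with unlabeled library 2 (-0.60 with unlabeled library 1), since deviations of 2 libraries mirror each other. In the same block fit of reads without a conversion, 3 genes were called higher (50 of 9807 in all) and 2 lower (6625 in all), in place of 0 and 1.

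The count of 1 gene lower at an unadjusted p below 0.05 was 0 in DESeq2 (187 of 14283 genes in all). It was also 0 with at least 10 reads in every library (6 of the 10 tested, 211 of 6859 in all). When single labeled libraries were left out it was 0 to 1 (148 to 537 in all). For reads without a conversion, 0 to 1 of the 10 genes were called higher when single labeled libraries were left out (0 to 9 of 9807 in all). Those called lower numbered 0 to 1 (0 to 3631 in all). With size factors of these reads 0 were called lower (0 in all). These size factors moved the median of all genes from -0.996 to 0.02, and with it Mdm2 to 0.90 and Ccng1 to 0.72. Leaving out libraries gave log2 differences of -0.14 to 3.20 for Sesn2, -0.25 to 0.66 for Bax and -0.079 to 1.67 for Aen. With a minimum of 1000 covered T positions per library, 4 of the 4 genes left had a higher T>C rate; 9 of 10 did in limma with and without the block and without unlabeled replicate 2, the gene lost being Sesn2. Genes whose reads with a conversion reached the rise were 3 of 9, and 3 to 5 with libraries left out, 5 being without unlabeled library 1. By the estimate from the rate they were 8 of 9, near the 90.2% of genes with a log2 fold change at least as high as that of Bbc3. Other causes were not tested. The log2 fold changes of reads kept their direction in all 10 genes under every alternative in which they were tested. Depth limits Sesn2, Aen and Pmaip1 most, with 1 to 5 reads in an unlabeled library.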
